A study of Mus musculus with 3 samples.

Results

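Cycling chondrocytes were examined in the healing femoral fracture of the mouse, as the cells of 2 single-cell RNA libraries that carried the transcripts of dividing cells together with the cartilage collagen gene *Col9a1*. A cell was a member when it held unique molecular identifiers (UMIs, each standing for 1 captured transcript) of at least 3 of the 6 proliferation genes *Mki67*, *Top2a*, *Hmmr*, *Ccnb2*, *Birc5* and *Ube2c* and more UMIs of *Col9a1* than of *Aspn*. *Aspn* codes for asporin, a small matrix proteoglycan that marked the fibroblast-like cells of the callus here. Cells first had to hold 500 or more genes, at most 10% mitochondrial UMIs, at most 5% UMIs of the *Hba* and *Hbb* globin genes and no UMI of *Ptprc*, which codes for the leukocyte antigen CD45. The rule was met by 299 of 8801 deposited cells at day 10 after fracture and by 224 of 12984 at day 14, 523 of 21785 in all.

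The mice were of the C57BL/6 strain, carried no labelled transgene and had a fracture of the femur held by an intramedullary pin. The study's methods give isoflurane and buprenorphine around surgery, and no other treatment is named for these libraries. Muscle and marrow were removed from the bone, the callus was crushed and digested with collagenase, and live cells (negative for the dye 7-AAD) without CD45, CD31 or TER119 at their surface were sorted and loaded. The sort was directed against leukocytes, endothelial cells and erythroid cells, and some cells with leukocyte transcripts were still found among those sequenced. The day 10 and day 14 libraries hold 1 sample each, so day and library cannot be told apart and no test between days was possible. Cycling and non-cycling cells of a library were split by the rule, so their ratios are given as a description without a test, and every interval below is a 95% interval of counting error only. The day 7 library of the series was left out of the comparisons.

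Fracture repair of long bones runs largely through a cartilage template, in which chondrocytes first divide and lay down a matrix of type II and type IX collagen and aggrecan. They then leave the cell cycle and enlarge as hypertrophic chondrocytes, which make type X collagen and the signal Indian hedgehog, before the cartilage is replaced by bone. In a dividing cell, genes for DNA synthesis are switched on before S phase by E2F factors, while genes for mitosis follow in G2, many through a promoter element known as the cell cycle genes homology region (CHR) that is bound by the DREAM and MuvB-FOXM1 complexes, often beside CCAAT boxes bound by NF-Y.

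The promoters of genes that mark these cells are shown for the elements just described. Each line gives the 120 bases before the RefSeq transcription start on GRCm38.p6, written in the direction of transcription, and capitals mark each match to CHR (TTTGAA), the CCAAT box (CCAAT) or E2F (the form TTTCGCG, the form TTTGGCG and the form TTTCCCG) on either strand. *Mki67* (chr7:135716380-135716499, minus strand) codes for the Ki-67 protein that coats mitotic chromosomes, *Top2a* (chr11:99024190-99024309, minus strand) for topoisomerase II alpha, *Ube2c* (chr2:164769809-164769928, plus strand) for a ubiquitin-conjugating enzyme of the anaphase-promoting complex, *Cdk1* (chr10:69352913-69353032, minus strand) for the kinase that drives mitosis and *Mcm6* (chr1:128359706-128359825, minus strand) for a subunit of the replication helicase.
Mki67: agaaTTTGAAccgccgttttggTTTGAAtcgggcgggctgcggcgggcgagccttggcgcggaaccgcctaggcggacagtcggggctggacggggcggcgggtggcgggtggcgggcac
Top2a: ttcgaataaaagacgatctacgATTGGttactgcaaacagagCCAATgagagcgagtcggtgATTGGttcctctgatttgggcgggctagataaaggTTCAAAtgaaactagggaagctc
Ube2c: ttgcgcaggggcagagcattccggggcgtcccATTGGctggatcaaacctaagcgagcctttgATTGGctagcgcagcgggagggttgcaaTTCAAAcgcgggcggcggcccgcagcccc
Cdk1: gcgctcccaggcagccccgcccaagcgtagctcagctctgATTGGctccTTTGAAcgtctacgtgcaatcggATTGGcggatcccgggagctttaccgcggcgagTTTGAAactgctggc
Mcm6: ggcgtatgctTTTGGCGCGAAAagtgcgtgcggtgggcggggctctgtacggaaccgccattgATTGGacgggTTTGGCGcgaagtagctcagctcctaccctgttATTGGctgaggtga
These 5 were chosen out of 13 windows read because they hold the elements. The 4 mitotic genes hold CHR matches and no E2F match, and *Mcm6* holds 3 E2F matches, of which 2 overlap, and no CHR match. Of the 13, 4 hold a CHR match and 2 an E2F match. The rule genes *Hmmr* and *Ccnb2* and the kinase gene *Plk1* hold CCAAT boxes without a CHR match, the rule gene *Birc5* holds 1 E2F match and no CHR match, and the S phase genes *Mcm5*, *Rrm2*, *Pcna* and *Tyms* hold no E2F match in the same 120 bases. Over the 250 bases before the start, a CHR match was present in 4 of the 6 rule genes and in 16 of 41 matched genes of a G2/M list (39.0%), against 6 of 31 matched genes of an S phase list (19.4%) and 18.3% of all 27025 genes of the promoter table. An E2F match was present in 13 of the 31 S phase genes (41.9%) and 6 of the 41 G2/M genes (14.6%), against 5.27% of all genes. The CCAAT box was frequent in both lists, in 31 of 41 and 22 of 31 genes, against 37.5% of all genes. CHR and CCAAT together occurred in 14 of 41 G2/M genes (34.1%), 4 of 31 S phase genes (12.9%) and 7.34% of all genes, and no CHR match was present in the 10 matched genes of a cartilage matrix list. These are matches of letters and not measured binding.

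The genes that chose the members had summed levels of 263 and 217 CPM (UMIs of the gene per 1000000 UMIs of the class) for *Mki67* at day 10 and day 14, and of 409 and 364 CPM for *Top2a*. *Hmmr*, which codes for a hyaluronan receptor at the spindle, stood at 175 and 189.6 CPM, and *Ccnb2*, the mitotic cyclin B2, at 117 and 144 CPM. *Birc5*, coding for survivin of the chromosomal passenger complex, and *Ube2c* reached 314 and 375 CPM at day 10 and 343 and 457 CPM at day 14. These levels follow from the rule and describe it. Most members were well inside the limit, with UMIs of all 6 genes in 152 of 299 and 124 of 224 cells. Just inside, 47 and 21 cells had exactly 3 of the genes, and just outside, 68 and 66 cells with more *Col9a1* than *Aspn* had exactly 2. On the other limit, 17 and 13 members had 1 *Col9a1* UMI more than *Aspn* UMIs, and 15 and 35 cells with 3 or more of the genes had equal counts and were outside, while the median member held 69 and 54.5 *Col9a1* UMIs more than *Aspn* UMIs.

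The chondrocyte label was checked on cartilage genes that the rule did not use. Cells with UMIs of at least 3 of 6 pericyte genes, a type that should lack them, gave the background. All 523 members had a UMI of *Col2a1*, the type II collagen of cartilage, but so had 51 of 51 and 152 of 162 pericyte marker cells, so its detection does not tell these types apart. *Sox9*, the master transcription factor of chondrocytes, was detected in 281 of 299 (94.0%) and 206 of 224 (92.0%) members, and with every cell thinned to 5000 UMIs in 80.3% and 73.2%, against 24.0% and 13.2% of the pericyte marker cells. *Acan*, the aggrecan gene, was found in 93.9% and 94.2% of members and 26.0% and 34.03% of pericyte marker cells at that depth. Cycling cells with more *Aspn* than *Col9a1*, thinned likewise, had *Acan* in 73.2% and 78.0% and *Sox9* in 50% and 40.9%. Detection of both genes thus set members less apart from these fibroblast-like cells than from pericyte marker cells. The pericyte marker cells had median depths of 12514 and 8955.5 UMIs, against 28296 and 27389.5 in the members. *Col2a1* exceeded *Col1a1*, the type I collagen of bone and fibrous tissue, in 245 (81.9%) and 179 (79.9%) of the members, and in the others *Col1a1* was as high or higher. The 24 and 21 members with 5 or fewer *Col9a1* UMIs had median counts of 155.5 and 171 *Col1a1* UMIs and 9.5 and 9 *Col2a1* UMIs, and thus met the rule on few cartilage transcripts.

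Of the markers of other cell types given here, endothelial, lymphocyte and erythroid genes were near 0 in the members, while neutrophil and pericyte genes were higher. The limits on *Ptprc* and globin UMIs had already been applied to these cells. The 6 endothelial genes summed to 1.39 and 1.67 CPM, the 6 lymphocyte genes to 3.71 and 5.0 CPM and the 6 erythroid genes to 4.75 and 2.73 CPM. The 7 neutrophil genes summed to 349 and 1031 CPM, against 2.07 and 159 CPM in the non-cycling chondrocytes. That signal sat in few cells, with 10 or more such UMIs in 1 member at day 10 and 3 members at day 14, and single cells held 76.0% of the *S100a8* UMIs and 77.0% of the *Elane* UMIs at day 14. The 6 pericyte genes summed to 14.3 and 102 CPM, against 8.40 and 9.93 CPM. Of 35 cell barcodes shared by the deposited day 10 and day 14 libraries, none was a member in both, and 4 members had a barcode that occurred in the other library.

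Members held more RNA per cell than the cells they were compared with. At day 10 the median member had 28296 UMIs from 4927 genes, and at day 14 it had 27389.5 from 4738.5, while the 3625 and 3684 non-cycling chondrocytes, which had more *Col9a1* than *Aspn* and none of the 6 genes, had medians of 19322 and 19650 UMIs. More than 5000 genes were found in 45.2% and 42.0% of members and in 6.15% and 7.27% of the non-cycling chondrocytes. No doublet caller was run, and the part of cell doublets in this difference was not tested.

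Of cells with more *Col9a1* than *Aspn*, 299 of 4500 were cycling at day 10 (6.64%, Clopper-Pearson interval 5.93 to 7.41) and 224 of 4419 at day 14 (5.07%, 4.44 to 5.76). Thinning every cell to 5000 UMIs gave 182 of 4149 (4.39%, 3.78 to 5.05) and 131 of 3824 (3.43%, 2.87 to 4.05), with overlapping intervals. The share was higher in cells with more *Aspn* than *Col9a1*, at 360 of 2583 (13.9%) and 374 of 5432 (6.89%), and after thinning at 8.95% and 4.56%. In both lineages the day 14 share was the lower of the pair, by more in the *Aspn* cells. Among chondrocytes the intervals of both days lay apart as counted, with 2 or more rule genes and at a 5% mitochondrial limit. They overlapped after thinning, without cells over 5000 genes, with 4 or more rule genes and with more *Col2a1* than *Col1a1* UMIs. They also overlapped for cells with 5 or more *Col9a1* UMIs and no *Aspn* UMI. The same was found for cells with more than 5 *Col9a1* UMIs above *Aspn* and under 10 neutrophil UMIs, of which 6.63% (5.88 to 7.45) and 5.88% (5.10 to 6.73) were cycling. Cells with 5 or fewer *Col9a1* UMIs above *Aspn* made up 10.95% of the non-cycling chondrocytes at day 10 and 26.0% at day 14, and 10.7% and 12.9% of the members.

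The cycling cells were not spread evenly over levels of *Col10a1*. Thinned to 5000 UMIs, cells without a UMI of *Col10a1*, the type X collagen of hypertrophic chondrocytes, were cycling in 128 of 2385 cases at day 10 (5.37%) and 63 of 1300 at day 14 (4.85%). Cells with 1 to 4 *Col10a1* UMIs had nearly the same shares, 52 of 958 (5.43%) and 62 of 1122 (5.53%). At that depth a *Col10a1* UMI was found in 44.0% and 46.5% of pericyte marker cells, beside 25.8% and 54.9% of members. Mere detection of *Col10a1* is therefore not read as expression. Cells with 5 or more *Col10a1* UMIs were cycling in 2 of 806 cases (0.248%, 0.0301 to 0.893) and 6 of 1402 (0.428%, 0.157 to 0.929), and with 50 or more in 0 of 412 and 0 of 782. The intervals of the cells with 5 or more lay below those of the cells with 0 and with 1 to 4 in both libraries. As counted, without thinning, the same order held less sharply, with 2.80% and 3.58% cycling among cells of 5 or more *Col10a1* UMIs, against 8.51% and 7.24% among those of 1 to 4, and at day 14 cells without *Col10a1* stood at 3.86%.

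**Figure D1:**
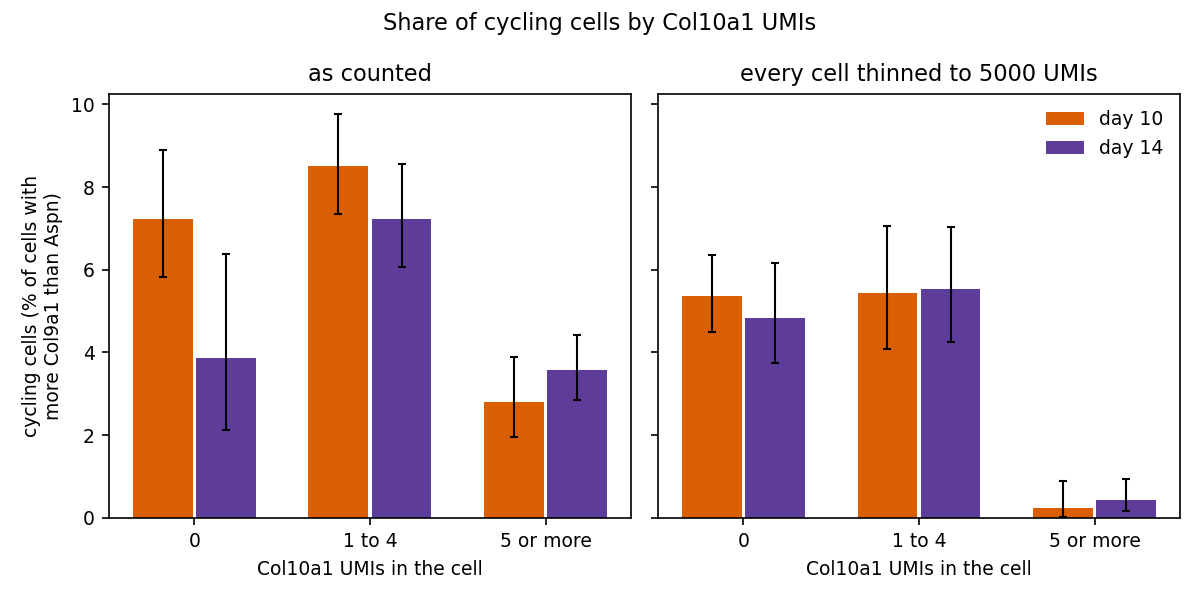
Share of cycling cells (in %, bars) among cells with more *Col9a1* than *Aspn*, by *Col10a1* UMIs in the cell, as counted and with every cell thinned to 5000 UMIs, for day 10 and day 14, with exact binomial 95% intervals as error bars. After thinning, the bars at 5 or more *Col10a1* UMIs stand at 0.248% and 0.428%, and all others lie between 4.85% and 5.53%.

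The other 16 stage genes did not divide the chondrocytes by a single order from early to late. In the same thinned cells, the share of cycling cells was lower with a UMI of the gene than without in both libraries for 8 genes, higher in both for 3, and differed in direction between libraries for 5. Intervals lay apart in both libraries for 3 of the 8 and 1 of the 3. Cells with a UMI of *Ihh*, which codes for Indian hedgehog, were cycling in 0.732% and 0.917% of cases, against 5.29% and 4.57% of those without. For *Cdkn1c*, which codes for the cyclin-dependent kinase inhibitor p57, the shares were 2.72% and 1.84% with a UMI and 6.09% and 4.61% without, and for *Ibsp*, the bone sialoprotein gene of mineralizing cells, 3.77% and 2.56% with and 5.88% and 7.58% without. These were the 3 genes with intervals apart. A UMI of *Ibsp* was also found in 50% and 68.8% of thinned pericyte marker cells, beside 61.7% and 70.1% of members. Detection of *Ibsp* is therefore not read as expression. Of the other hypertrophic genes, *Mmp13* and *Alpl* were lower with a UMI in both libraries, with intervals apart at day 14 only. *Spp1* (4.42% with and 4.27% without at day 10, 3.39% and 3.98% at day 14) and *Panx3* (4.69% and 4.09%, 3.39% and 3.46%) had overlapping intervals in both libraries.

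The reverse order was found for *Ucma*, a secreted protein of young cartilage, with 5.18% and 5.02% cycling among cells with a UMI and 2.74% and 1.86% among those without. *Epyc*, a small proteoglycan of cartilage, gave 5.63% and 5.05% with a UMI against 3.89% and 3.1% without, and *Car12* 5.44% and 6.25% against 4.21% and 3.11%. Intervals overlapped in both libraries for *Epyc* and at day 10 for *Car12*. The genes listed as early did not share this order. *Matn4*, matrilin 4, gave 3.83% with a UMI against 6.24% without at day 10 and 3.5% against 3.29% at day 14, and *Penk* and *Nrk* were lower with a UMI in both libraries, with overlapping intervals. Of the genes listed as prehypertrophic, *Car8* turned from 3.45% with and 4.91% without at day 10 to 4.96% and 2.82% at day 14. At 5000 UMIs a cell that shows no rule gene cannot be told from one that is not cycling.

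A set of members nonetheless carried much *Col10a1*. At 50 or more *Col10a1* UMIs there were 7 members at day 10 and 20 at day 14. Their median depth was 47694 and 41697 UMIs, against 20819 and 19594 UMIs in the 618 and 1243 non-cycling chondrocytes with as many. Their median *Col1a1* count was 491 and 274.5 UMIs, against 42 and 11 in the same comparison cells. The members with most *Col10a1* were therefore deeper and richer in type I collagen message than other Col10a1-rich cells, and whether they were single cells was not tested. These few cells held 1143 of the 1699 *Col10a1* UMIs of the members at day 10 (67.3%) and 8771 of 9717 at day 14 (90.3%), while the median member had 1 and 3.

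Levels in cycling and non-cycling chondrocytes were compared within each library as the log2 ratio of CPM, and a gene was counted as higher or lower when it was at least 2-fold apart and had a mean of 5 CPM or more over both classes. Over the genes compared, 525 of 8995 were higher in both libraries (5.84%) and 120 were lower (1.33%), the rule genes included. By library, 7.4% were higher and 2.05% lower at day 10, and 6.75% and 2.16% at day 14. The median log2 ratio of all genes was 0.14 and 0.11.

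Genes of the mitotic machinery were higher almost without exception. Of 48 genes of the G2/M list, all 48 were higher at day 10 and 47 at day 14, with median log2 ratios of 5.82 and 5.67. Because the 6 rule genes are themselves G2/M genes, cells were chosen to be rich in these transcripts and the counts describe the choice. *Cdk1* stood at 247 CPM in cycling and 5.95 CPM in non-cycling chondrocytes at day 10 (log2 ratio 5.38, 5.22 to 5.53) and at 258 and 5.30 CPM at day 14 (log2 ratio 5.61, 5.45 to 5.77). Its partner *Ccna2*, cyclin A2, had 110.1 against 0.362 CPM (8.25) and 114 against 0.373 CPM (8.25). Non-cycling chondrocytes were thus nearly free of cyclin A2 message, with 26 and 28 UMIs in all their cells. *Plk1*, the polo-like kinase of mitotic entry, had 64.8 against 0.139 CPM (8.86) and 62.9 against 0.266 CPM (7.89). All 13 mitotic kinases were higher in each library, with median log2 ratios of 7.01 and 7.23, as were all 13 mitotic kinesins at day 10 and the 12 that passed the level limit at day 14 (6.93 and 6.81). Kinesins move chromosomes and slide spindle microtubules. Outside the rule, the genes with the largest ratios in both libraries were *Pbk* (9.01 and 9.24), a mitotic kinase, *Depdc1a* (9.20 and 9.01), *Pclaf* (9.06 and 8.63), a partner of the sliding clamp PCNA, and the histone gene *Hist1h3c* (8.60 and 8.91).

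Genes of DNA replication were higher too, by smaller ratios. Of the 43 genes of the S phase list, 40 were higher at day 10, and 36 of the 39 that passed the level limit were higher at day 14, with medians of 3.31 and 2.78. The replication helicase and fork list gave 21 of 22 (2.70) and 17 of 18 (2.23). *Mcm5*, of the same helicase as *Mcm6*, had 41.6 against 1.82 CPM (4.51) and 32.2 against 1.54 CPM (4.38). *Rrm2*, the regulated subunit of ribonucleotide reductase, had log2 ratios of 5.85 and 5.90, and *Tk1*, thymidine kinase, of 7.19 and 7.57. *Pcna*, the sliding clamp, was among the smaller, with 123 against 28.1 CPM (2.12) and 102 against 26.1 CPM (1.97). Most replication-dependent histone transcripts lack the poly(A) tail that the assay captures, and reads of near-identical histone genes cannot be assigned with certainty, so these values are partial. Of histone genes chosen by name, 19 of 22 were higher at day 10 (4.47) and 11 of 16 at day 14 (2.91). The variant *H2afz*, which is polyadenylated, had 1465 against 143 CPM (3.35) and 1739 against 165 CPM (3.40), and *Hmgb2*, a chromatin protein, 910.2 against 49.7 CPM (4.19) and 829.9 against 54.3 CPM (3.93).

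Members differed among themselves in the balance of these programs. The S phase list took a median of 11.1 UMIs per 10000 at day 10 (quartiles 5.27 and 30.4) and 8.74 at day 14 (4.23 and 25.5), against medians of 3.11 and 3.07 in non-cycling chondrocytes. The G2/M list took 47.0 and 46.9 per 10000, against 4.70 and 5.36. In these values per cell the list includes the rule genes, unlike in the counts of genes above. Non-cycling chondrocytes hold no UMI of the rule genes by definition, so the rule fixed part of this difference. The S phase value was above the 90th percentile of non-cycling chondrocytes in 212 of 299 members (70.9%) and 139 of 224 (62.1%), and in the other members it lay within the range of most non-cycling cells. Across members the Spearman correlation of both lists was 0.20 (299 cells) and 0.35 (224 cells), between values that share each cell's depth. By number of rule genes, the S phase list summed to 2767 and 1881 CPM in members with 5 of them and to 1745 and 1561 CPM in members with all 6, while the G2/M list went from 3674 and 3194 CPM to 8071 and 8625 CPM. The G2/M genes include the rule genes, so that rise follows in part from the grouping. With the members ranked by the S phase list and split at its quartiles into 4 groups, the median of the G2/M list was 20.02, 62.6, 85.7 and 34.4 per 10000 from the lowest to the highest group at day 10 and 20.3, 60.1, 101 and 48.1 at day 14, so it was highest between the median and the upper quartile and lower above it.

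**Figure D2:**
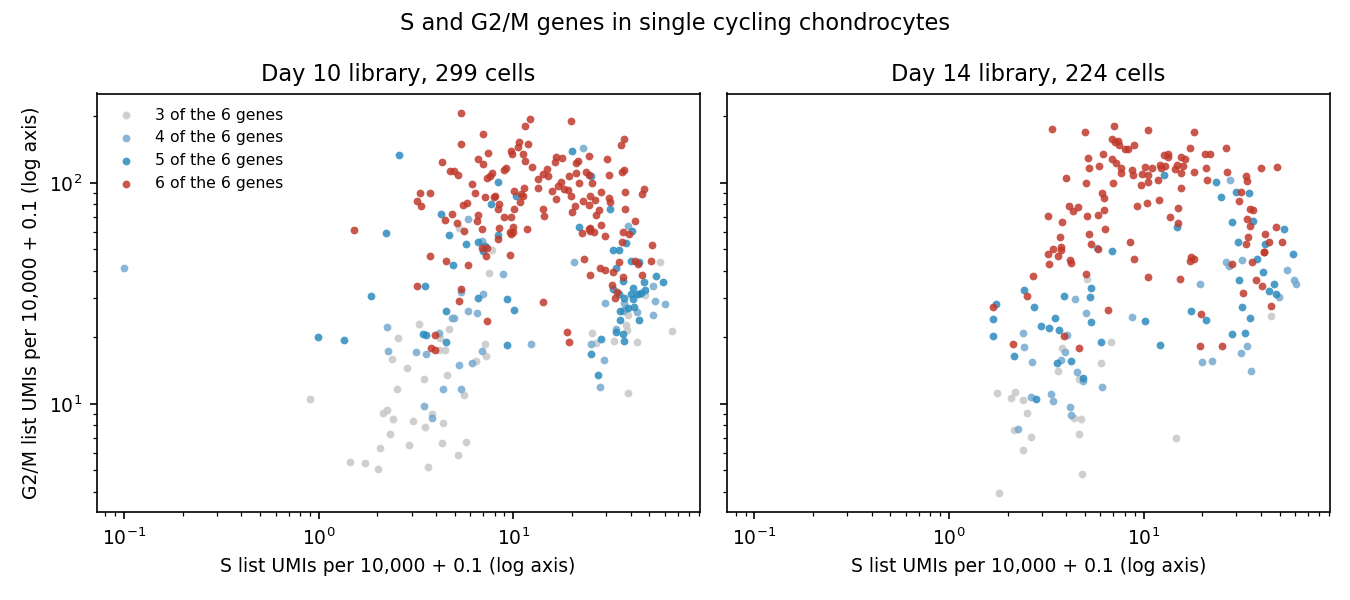
UMIs of the G2/M list (vertical axis) against UMIs of the S phase list (horizontal axis), both per 10000 UMIs of the cell plus 0.1 on log axes, for the 299 members of day 10 and the 224 of day 14, 1 point per cell, coloured by the number of rule genes (3 to 6). The G2/M list includes the rule genes here. The points form an arch, in which the median G2/M value is highest between the median and the upper quartile of S phase values (85.7 and 101 per 10000) and lower above that quartile (34.4 and 48.1).

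Transcription factors and brakes of the cycle were divided. *Foxm1*, which drives G2/M genes, had log2 ratios of 5.12 and 5.51, *Mybl2*, its partner in the MuvB complex, 4.05 and 4.47, and *E2f1* 3.36 and 3.41. *Myc*, which codes for a transcription factor, was close to level (-0.15 and -0.13). Among D-type cyclins, which take cells from G1 towards S phase, *Ccnd1* had 46.7 against 28.0 CPM (0.74) and 60.2 against 28.8 CPM (1.06), and *Ccnd2* 0.22 and -0.35. The day 14 ratio of *Ccnd1* was 0.10 when both classes were held to cells with under 5 *Col10a1* UMIs.

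Of the 8 genes for inhibitors of cyclin-dependent kinases and related phosphatases, some were higher in cycling chondrocytes and others lower. *Cdkn1c* (chr7:143458339-143461050, minus strand, GRCm38), an imprinted gene known for its part in the cell cycle exit of growth plate chondrocytes, had 160.4 CPM in members and 381 CPM in non-cycling chondrocytes at day 10 (log2 ratio -1.25, -1.33 to -1.17), and 128 and 336 CPM at day 14 (log2 ratio -1.39, -1.49 to -1.29). The ratio was much the same among cells with under 5 *Col10a1* UMIs, at -1.22 and -1.68. *Cdkn1a*, which codes for p21, had 252 against 489 CPM (-0.96) and 239.6 against 526 CPM (-1.13). By contrast *Cdkn2c*, coding for p18, had 67.2 against 17.9 CPM (1.90) and 88.7 against 18.7 CPM (2.25), and *Cdkn2d*, coding for p19, 104 against 16.0 CPM (2.70) and 108 against 16.5 CPM (2.72). *Cdkn3*, a phosphatase gene with a mitotic pattern, had ratios of 6.52 and 6.54. *Cdkn1b*, coding for p27, was close to level (0.16 and 0.22). Cip/Kip genes *Cdkn1a* and *Cdkn1c* were thus lower and the INK4 genes *Cdkn2c* and *Cdkn2d* higher in both libraries, although *Cdkn1a* missed the 2-fold limit at day 10.

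**Figure D3:**
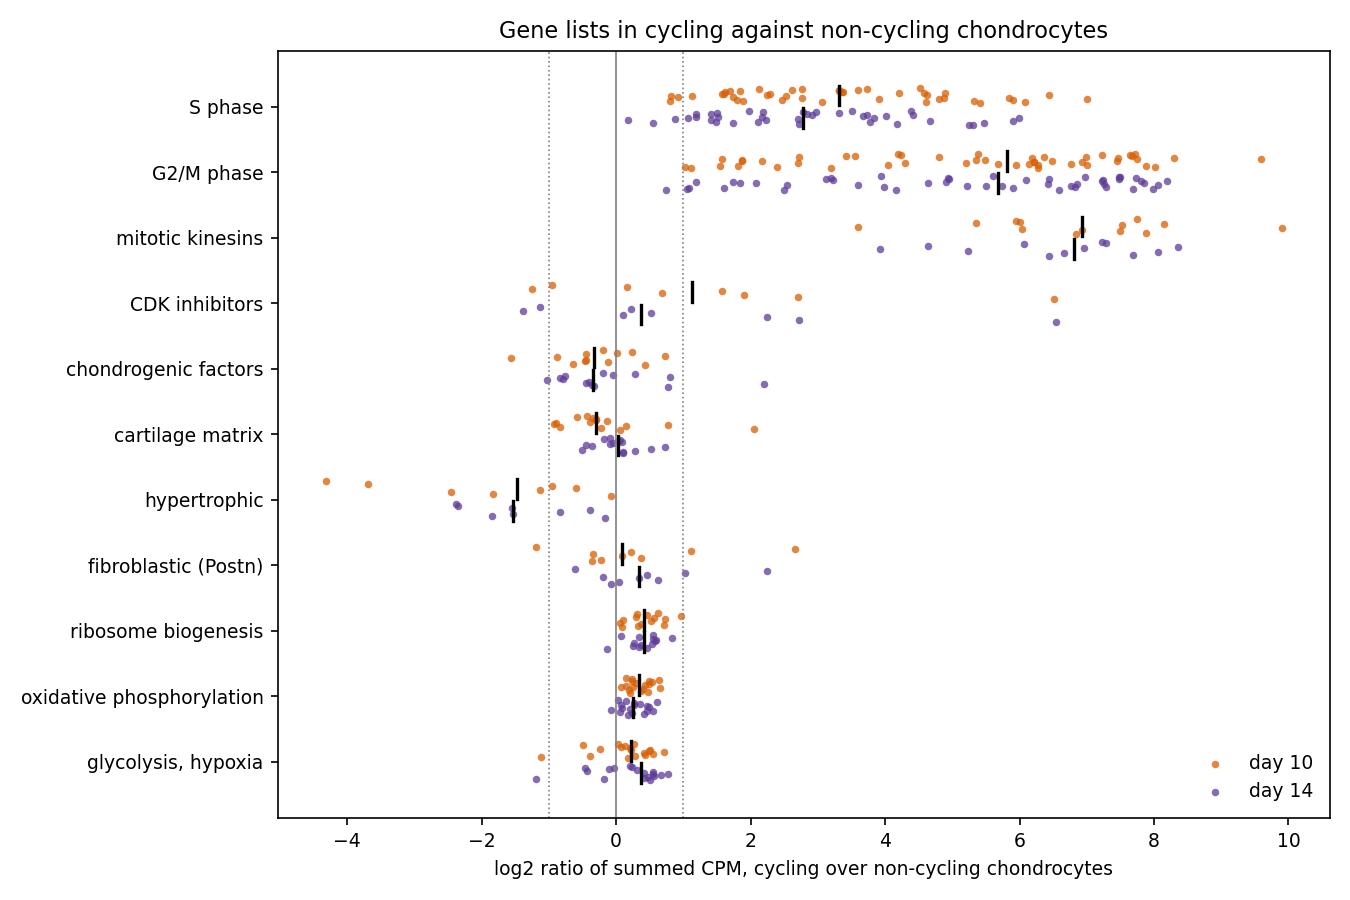
Log2 ratio of CPM in cycling over non-cycling chondrocytes (horizontal axis) for the genes of the fixed lists (rows), 1 point per gene that passed the level limit, for day 10 and day 14, with the list medians as bars. Points of the G2/M list lie mostly right of 0 (medians of 5.82 and 5.67), those of the CDK inhibitor list lie on both sides, and points of the hypertrophic list lie left of 0 (-1.48 and -1.54).

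Cartilage matrix genes differed little with the cycle. Of 15 genes, 1 was higher at day 10 and 0 at day 14, and 0 were lower in either library, with median log2 ratios of -0.31 and 0.02. *Col2a1* had 30074 against 40794 CPM (-0.44) and 28008 against 29835 CPM (-0.09), and *Acan* had ratios of -0.13 and -0.05. The gene past the limit was *Prg4*, which codes for the lubricant lubricin (2.05 and 0.11), and 1 member held 47.0% of its day 10 UMIs. Its day 10 ratio was 1.18 without the highest cell of each class and -0.41 without cells over 5000 genes. *Comp*, a matrix glycoprotein gene, had ratios of -0.89 and -0.45 and *Matn1*, matrilin 1, of -0.92 and -0.36. *Ucma* had 1351 against 1082 CPM (0.32) and 1242 against 784 CPM (0.66). The transcription factors of the lineage were also near level, with ratios of -0.20 and -0.20 for *Sox9*, 0.24 and 0.27 for its cofactor *Sox5* and 0.01 and -0.05 for *Sox6*. *Barx2* was the one factor past 2-fold higher, at day 14, where 1 member held 24.1% of its UMIs.

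Hypertrophic genes were lower in cycling chondrocytes, whose *Col10a1* the rule did not use. Of 8 genes, 5 were lower in each library and all 8 had ratios below 0, with medians of -1.48 and -1.54, against medians of 0.14 and 0.11 over all genes. *Col10a1* (chr10:34389981-34397085, plus strand) had 197 CPM in members and 3921 CPM in non-cycling chondrocytes at day 10 (log2 ratio -4.32, -4.39 to -4.25) and 1474 and 7674 CPM at day 14 (log2 ratio -2.38, -2.41 to -2.35). *Ihh* had 11.7 against 151 CPM (-3.69) and 54.9 against 281 CPM (-2.36). Both genes were more than 4-fold lower in either library, by more at day 10. For *Col10a1* the sizes rest on cells with 50 or more of its UMIs, which held 96.5% and 97.4% of its UMIs in non-cycling chondrocytes beside the 67.3% and 90.3% in members. With these cells left out of both classes the ratios were -1.31 and -0.90 for *Col10a1*, -2.57 and -2.08 for *Ihh* and 0.43 and -0.36 for *Mmp13*, the medians of the list were -1.17 and -0.86, and 58 in place of 120 genes were lower in both libraries. *Ibsp* had 3035 against 16599.9 CPM (-2.45) and 6427 against 18579.6 CPM (-1.53), *Spp1*, the osteopontin gene, ratios of -1.83 and -1.84, and *Mmp13*, a collagenase gene of late hypertrophy, of -0.96 and -1.54. *Alpl*, the phosphatase gene of mineralization, had -1.13 and -0.83, while *Sp7*, the osterix gene, was near level (-0.07 and -0.17). With both classes held to cells under 5 *Col10a1* UMIs, *Ihh*, *Ibsp* and *Spp1* were still more than 2-fold lower, at -2.36 and -2.23 for *Ihh*, -2.18 and -1.72 for *Ibsp* and -1.24 and -1.40 for *Spp1*. *Mmp13* was not, at 0.57 and -0.02, and the list medians were then -0.61 and -0.64. The limits of 5 and 50 *Col10a1* UMIs are raw counts. Members were the deeper class, so relative to depth each limit was stricter for them. Of the genes lower in both libraries, those with the largest ratios included *Cds1* (-3.67 and -3.51) and *Dmp1* (-3.60 and -2.88) and *Phex* (-2.66 and -2.58), a pair of genes best known from osteocytes.

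Signalling genes of the growth plate were grouped by pathway. In the hedgehog and PTHrP list *Pth1r*, the receptor of parathyroid hormone-related protein, had -1.04 and -0.78, and *Ptch1*, receptor and target of hedgehog, 0.28 and 0.30. Of the BMP and TGF-beta list, 1 of 20 genes was higher and 3 were lower in each library. The lower ones were the ligand genes *Bmp2* (-1.40 and -1.64) and *Bmp6* (-1.96 and -2.17) and the BMP antagonist *Nog* (-2.91 and -1.69), and the higher one was *Grem1*, another BMP antagonist (1.27 and 1.30), whose day 10 ratio was 0.33 without cells over 5000 genes. *Bmp2* was at -0.82 at day 10 without cells of 50 or more *Col10a1* UMIs. These ligand genes were lower while the receptor genes *Bmpr1a* (0.12 and 0.12) and *Bmpr2* (-0.07 and -0.12) were near level. Of 11 Wnt genes, 3 were higher and 1 lower at day 10, and 2 higher and 2 lower at day 14. *Wnt4*, a ligand of prehypertrophic cartilage, had -1.89 and -1.62, and the modulators *Sfrp1* and *Dkk3* 1.11 and 1.07, and 1.10 and 0.94. *Vegfa*, the angiogenic factor of hypertrophic cartilage, had 70.8 against 154 CPM (-1.12) and 58.7 against 135 CPM (-1.20). Without cells of 50 or more *Col10a1* UMIs its ratios were -0.88 and -0.39. The other genes of its glycolysis and hypoxia list stayed within 2-fold, with list medians of 0.22 and 0.36. Ribosomal protein genes were level (0 of 82 past 2-fold, medians of 0.05 and -0.04), and 14 ribosome biogenesis genes had medians of 0.42 in each library with 0 past 2-fold.

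Some matrix and signalling genes outside the cycle were higher in cycling than in non-cycling chondrocytes. Those named here beside *Ptn* and *Postn* were picked after their values were seen. Per cell, the fixed fibroblastic list named for *Postn* took a median of 223.0 UMIs per 10000 in members and 231.6 in non-cycling chondrocytes at day 10. At day 14 it took 237.3 and 171.2. The median of the whole list was thus higher in members at day 14 only. *Ptn* (chr6:36714929-36810220, minus strand), which codes for the heparin-binding growth factor pleiotrophin, had 149 CPM in members and 23.5 CPM in non-cycling chondrocytes at day 10 (log2 ratio 2.67, 2.56 to 2.77) and 146 and 31.0 CPM at day 14 (log2 ratio 2.24, 2.13 to 2.35). *Vcan*, the versican gene of loose matrix, had 79.4 against 16.3 CPM (2.29) and 56.7 against 14.7 CPM (1.95), and *Postn*, the periostin gene, 919 against 425 CPM (1.11) and 682 against 335 CPM (1.02). In the fibroblast-like *Aspn* cells *Ptn* was at 1038 and 850.2 CPM in cycling ones and 1172 and 890.4 CPM in non-cycling ones, so its cycling ratio there was -0.17 and -0.07. Thinned to 5000 UMIs, *Ptn* was found in 32.2% and 29.0% of members, 8.3% and 8.5% of non-cycling chondrocytes and 20% and 21.5% of pericyte marker cells. The intervals of members (26.9 to 37.9 and 23.2 to 35.4) and of pericyte marker cells (10.0 to 33.7 and 15.1 to 29.1) overlapped, so these shares are not read as setting the 2 apart. The pericyte shares rest on 50 and 144 cells, and the difference was not tested. The intervals of members lay above those of non-cycling chondrocytes (7.36 to 9.22 and 7.58 to 9.45), whose shares lay below those of the pericyte marker cells. *Postn* was found at that depth in 87.8% and 76.8% of members and 62.7% and 51.3% of non-cycling chondrocytes. Pericyte marker cells had it in 96.0% and 86.8%, so the share in members was not above theirs. *Lrrc15* (1.82 and 1.66), a surface protein gene of fibroblasts, *Sfrp2* (1.91 and 1.34) and *Gas1* (1.53 and 1.69), a hedgehog co-receptor gene, had the same direction. When the members within 5 UMIs of the *Col9a1* and *Aspn* limit and those with 10 or more neutrophil UMIs were left out of both classes, *Ptn* stood at 2.62 and 2.26 and *Vcan* at 2.17 and 1.94, while *Gas1* was within 2-fold at day 10 (0.93). Held to cells with under 5 *Col10a1* UMIs, *Ptn* had ratios of 2.39 and 1.87 and *Postn* of 0.87 and 0.78.

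The cycling *Aspn* cells allowed the same contrast in another lineage of the same libraries. Of the 525 genes, rule genes included, that were higher in cycling chondrocytes, 502 passed the level limit in all 4 contrasts, and 356 of these were among the 396 genes (4.16%) higher in both libraries of the *Aspn* cells. Both cycling classes were chosen by the same 6 genes, which sets part of this overlap. Of the 502, 37 were under a log2 ratio of 0.5 in both libraries of the *Aspn* cells and 10 had a ratio below 0 in both. Of the 120 lower genes, 90 could be compared, and 16 of them were among the 66 genes (0.693%) lower in both libraries of the *Aspn* cells. *Epas1*, which codes for HIF-2 alpha, had ratios of -2.47 and -1.47 in chondrocytes and of 0.62 and 0.65 in *Aspn* cells. No gene past 2-fold in both libraries of the chondrocytes was past 2-fold the opposite way in both libraries of the *Aspn* cells.

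**Figure D4:**
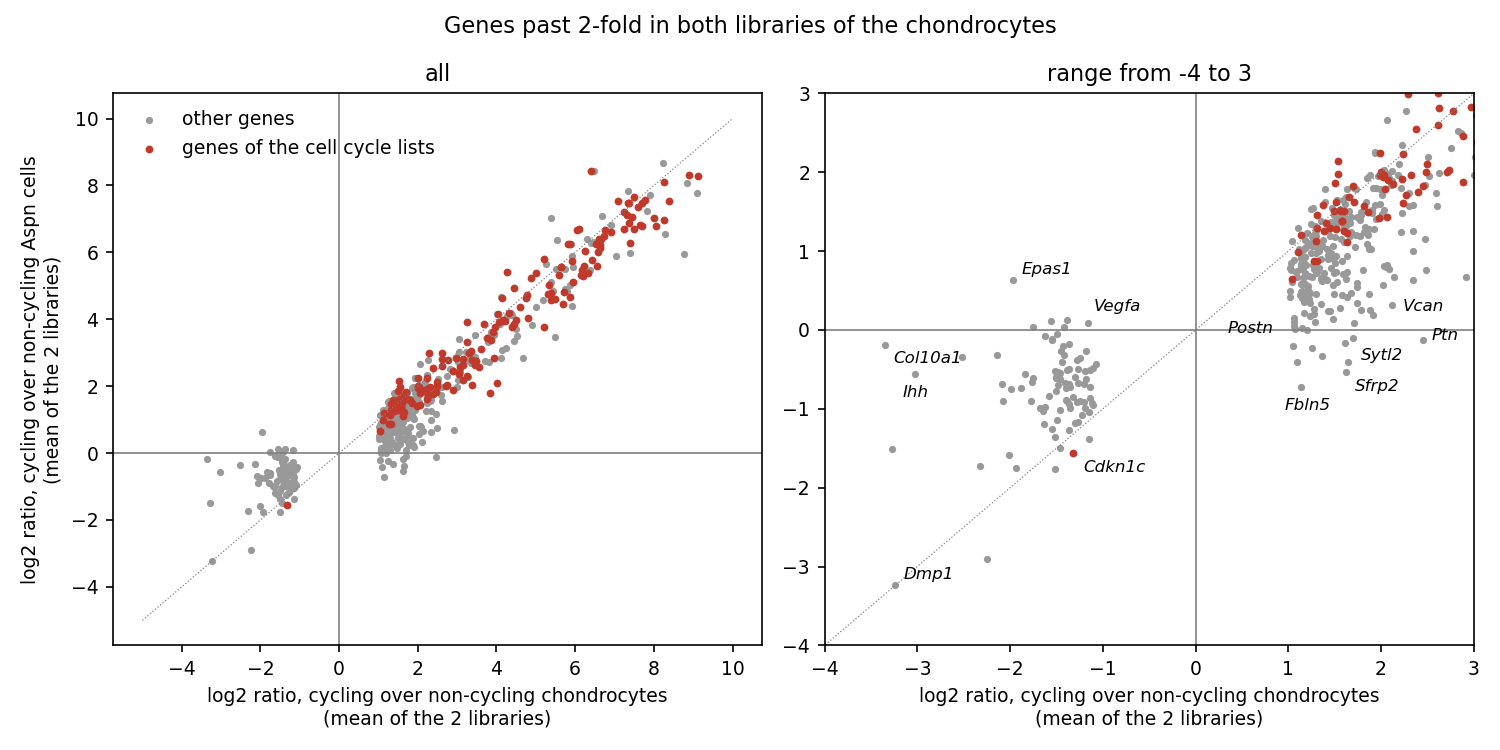
Genes past 2-fold in both libraries of the chondrocytes, rule genes left out, with the log2 ratio of cycling over non-cycling chondrocytes (horizontal axis) and of cycling over non-cycling *Aspn* cells (vertical axis), each the mean of both libraries, over the whole range and from -4 to 3. Cell cycle genes (red) follow the dotted line of equal ratios, while *Ptn*, *Sfrp2* and *Sytl2* lie right of 0 and just below 0 on the vertical axis.

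Set directly against cycling *Aspn* cells, cycling chondrocytes had nearly the same levels of cycle genes. None of the 48 G2/M genes and none of the 43 S phase genes was 2-fold apart in either library, with medians of 0.14 and 0.09 for G2/M and 0.04 and -0.21 for S phase. Over all genes 4.92% were higher in chondrocytes and 7.92% lower at day 10, 4.05% and 7.47% at day 14, and 3.26% and 5.62% of 9318 genes in both libraries. The rule chose both classes by the same 6 genes, which sets part of this likeness. Of 15 cartilage matrix genes 13 and 12 were higher (medians of 3.39 and 2.97), which the *Col9a1* rule selects for. Among cycle brakes, *Cdkn1c* was higher in cycling chondrocytes, with 160.4 against 26.2 CPM (2.61) and 128 against 40.5 CPM (1.66), and so was *Cdkn1a* (1.38 and 0.68, the latter within 2-fold). The D-type cyclin genes had ratios of -1.06 and -0.73 for *Ccnd1* and of -1.57 and -1.32 for *Ccnd2*. Outside the cartilage lists, the genes most above the cycling *Aspn* cells in both libraries included *Ppp1r1b* (5.32 and 4.81) and *Fam89a* (4.33 and 5.26), and those most below them included *Mfap5* (-3.64 and -3.29), a microfibril gene, *Acta2* (-3.89 and -2.89), the smooth muscle actin gene, and *Tagln* (-4.11 and -2.81). The 6 pericyte genes summed to 14.3 and 102 CPM in cycling chondrocytes against 453 and 581 CPM in cycling *Aspn* cells, and their part in the *Acta2* and *Tagln* differences was not tested. All 18 oxidative phosphorylation genes had ratios below 0 in each library (medians of -0.29 and -0.25) without reaching 2-fold, beside a median of all genes of -0.14 and -0.19.

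**Figure D5:**
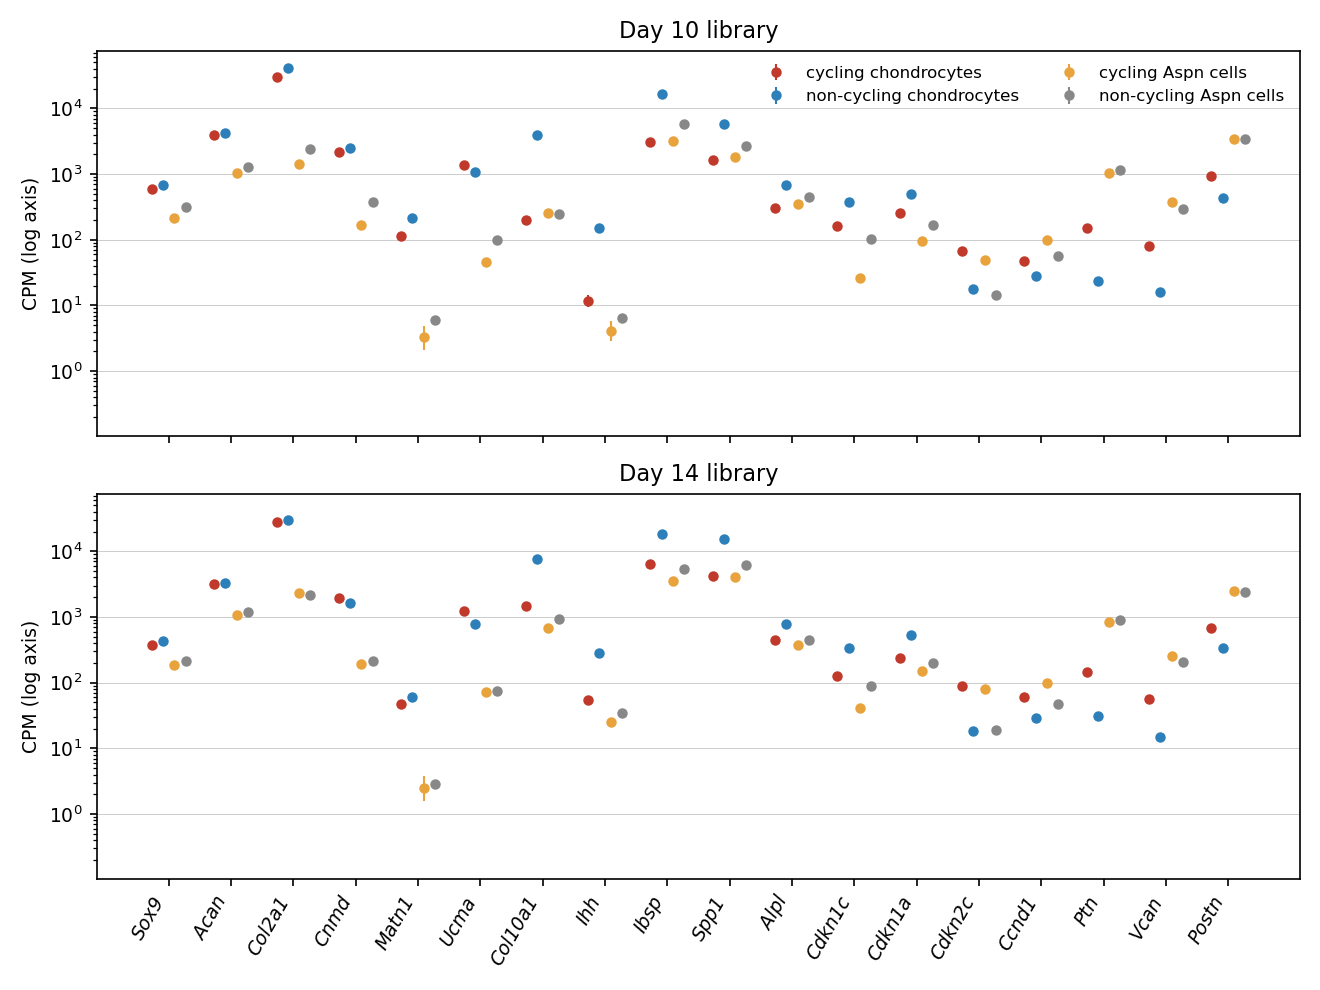
Levels (CPM, log axis) of selected genes in cycling and non-cycling chondrocytes and in cycling and non-cycling *Aspn* cells, for day 10 and day 14, with exact Poisson 95% intervals as error bars. *Cdkn1c* and *Col10a1* lie lower in cycling than in non-cycling chondrocytes, and *Ptn* lies higher in cycling (149 and 146 CPM) than in non-cycling chondrocytes (23.5 and 31.0 CPM).

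Between day 10 and day 14 the members differed in few genes, 91 of 9316 higher (0.977%) and 105 lower (1.13%) at day 14, with 1 library each. Of the hypertrophic genes, 4 of 8 were past 2-fold higher at day 14. *Col10a1* went from 197 to 1474 CPM (log2 ratio 2.90, 2.83 to 2.98) in members and by a ratio of 0.97 in non-cycling chondrocytes, and *Ihh* from 11.7 to 54.9 CPM (2.23, beside 0.90). Most of these UMIs were in the 7 and 20 members with 50 or more, deep and rich in *Col1a1*, and whether they were single cells was not tested. Without such cells the members stood at 67.3 and 163 CPM of *Col10a1* (log2 ratio 1.28) and *Ihh* had a ratio of 1.10, with 4 of 8 hypertrophic genes still past 2-fold. A UMI of *Col10a1* was found in 215 of 299 and 210 of 224 members and also in 37 of 51 and 114 of 162 pericyte marker cells, so its detection is not read as expression. *Epas1* (2.23, beside 1.24), *Cilp* (2.51, beside 1.43), a cartilage matrix gene, and the Wnt inhibitor gene *Wif1* (2.03, beside 1.01) had the same direction in both classes. Several of the largest ratios came from single cells, such as *Bglap*, the osteocalcin gene (5.30), with 93.2% of its day 14 UMIs in 1 member and a ratio of 1.80 without the highest cell, and *Car2* (7.03), with 98.0%.

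Several chemokine and growth factor genes, and the transcription factor gene *Myc*, were lower at day 14. *Cxcl2*, a neutrophil-attracting chemokine gene, had a ratio of -3.16 in members and -2.32 in non-cycling chondrocytes, *Il11*, an interleukin gene, -2.43 and -2.86, and *Cxcl1* -2.06 and -2.10. *Igf2*, which codes for insulin-like growth factor 2, went from 73.9 to 25.5 CPM in members (-1.54, beside -1.25), and *Myc* had -1.15 and -1.17. These genes had the same direction in cycling and non-cycling chondrocytes. Of the cell cycle lists, the S phase genes had a median of -0.32 between days, with 1 of 43 above 0, and of 0.00 in non-cycling chondrocytes over the 17 that passed the level limit, while the G2/M genes had a median of -0.04, beside -0.07 for all genes. Histone genes by name had a median of -0.95, with 11 of 26 past 2-fold lower at day 14. The S phase and histone medians of the members thus lay below that of all genes and the G2/M median beside it.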

How the data were processed

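The authors sorted live CD45-, CD31- and TER119-negative callus cells, made 10x Genomics 3′ libraries and deposited filtered UMI count matrices for day 7, day 10 and day 14. The submitters' processing notes name Cell Ranger 3.0 and mm10. The chemistry and program version are given differently in the study's methods and in the file headers, so they are not settled here. The deposited counts are whole UMI counts of 32285 genes, not normalized.

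Members, comparison cells and gene lists were chosen with earlier results of these data known. UMIs were summed per class and library and scaled to CPM, with exact Poisson intervals. Log2 ratios had exact conditional binomial intervals, and shares had Clopper-Pearson intervals. All intervals are at 95% and cover counting error only, since a library is 1 sample and cells are not replicates. A gene was counted at a log2 ratio of 1 or more, or -1 or less, with a mean of at least 5 CPM over both classes. A fold against a class with no UMI used a floor of 3 counts over that class. Genes named are those of the fixed lists and of the rule, and per comparison and direction the 10 whose smaller ratio of both days was largest. *Vcan*, *Lrrc15*, *Sfrp2*, *Gas1*, *Epas1*, *Cilp*, *Wif1*, *Prg4*, *Barx2* and the genes with an opposite sign in *Aspn* cells were also named after their values were seen, where no list holds them. Depth per member was a median of 28296 and 27389.5 UMIs. Thinning drew 5000 UMIs per cell without replacement and left out shallower cells. No doublet caller was run. Scripts were tested on simulated counts. Promoters came from a RefSeq table of GRCm38.p6, in which 41 of 48 G2/M genes, 31 of 43 S phase genes and all 6 rule genes were matched. Gene positions are from GENCODE M21 on GRCm38. Python 3.11.15, numpy 2.4.6, scipy 1.17.1 and pandas 2.3.3 were used. The alternatives tried were other limits on genes, rule genes, *Col9a1* and mitochondrial UMIs, thinning, matching on depth, the mean over cells, other scalings and no minimum level.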

Additional observations from a re-analysis of the deposited data

Results flagged for a closer look

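Among genes past 2-fold in both libraries of the chondrocytes, 10 higher and 4 lower genes had ratios of the opposite sign in both libraries of the *Aspn* cells. The difference between the lineages was not tested, since each library is 1 sample. Higher in cycling chondrocytes at day 10 were *Ptn* (2.67, beside -0.17 in *Aspn* cells), *Col8a1* (2.03, beside -0.10), *Sfrp2* (1.91, beside -0.43), *Sytl2* (1.71, beside -0.55), *Gas1* (1.53, beside -0.32), *Asphd2* (1.38, beside -0.32), *Fbln5* (1.14, beside -0.83), *Sfrp1* (1.11, beside -0.25) and *Fzd1* (1.09, beside -0.13). The tenth was *1190005I06Rik*. Lower were *Epas1* (-2.47, beside 0.62), *Vegfa* (-1.12, beside 0.14), *Adgrf5* and *Enc1*. The *Aspn* ratios named were all within 2-fold of level.

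In the day 7 library, which no comparison used, 41 cells met the same rule, 11.8% of 347 cells with more *Col9a1* than *Aspn* (Clopper-Pearson interval 8.61 to 15.7). Their median depth was 38503 UMIs, and *Mki67* stood at 192 CPM. *Col10a1* was at 63.2 CPM in these cells and 3661 CPM in the 179 non-cycling chondrocytes of that library, and *Cdkn1c* at 159 and 302 CPM.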

How the results depend on the processing

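Of 525 higher and 120 lower genes of cycling against non-cycling chondrocytes, counts became 4531 and 383 with no minimum level. The lower genes numbered 248 where members needed 5 or more *Col9a1* UMIs and no *Aspn* UMI (41 and 28 members), 182 after thinning to 5000 UMIs, 62 in cells with under 5 *Col10a1* UMIs and 58 in cells with under 50. Against cycling *Aspn* cells, 304 higher and 524 lower genes became 833 and 1217 with no minimum level, and the lower genes 802 under the stricter *Col9a1* limit. Between days, 91 higher and 105 lower genes became 139 and 196 without cells over 5000 genes, 566 and 759 under the stricter *Col9a1* limit, 504 and 632 after thinning and 2088 and 1651 with no minimum level. The day 10 share of cycling cells of 6.64% became 4.05% without cells over 5000 genes, 8.16% with 2 or more rule genes, 5.6% with 4 or more, 3.67% under the stricter *Col9a1* limit and 4.39% after thinning. The day 14 share of 5.07% became 3.27%, 6.56%, 2.75% and 3.43% without cells over 5000 genes, with 2 or more rule genes, under the stricter *Col9a1* limit and after thinning, and 5.88% without members near the *Col9a1* limit or with neutrophil UMIs. The causes of these differences were not tested. *Prg4* turned from 2.05 to -0.41 at day 10 without cells over 5000 genes. Matching both classes on UMIs per cell gave 495 higher and 100 lower genes, within 1.5 times the reported counts, and the mean over cells, centring on the median, totals without the 50 most abundant genes and a 5% mitochondrial limit left every count within 1.5 times. The limits on *Col9a1* excess, *Col2a1* over *Col1a1*, *Col10a1* (under 5 and under 50) and the highest cell were chosen after seeing the data. A paired fit of the classes over libraries was not run, since the rule split the classes. Over all settings, 816 of 3198 gene and list values moved beyond their interval or spread, and 1 was reversed. Of these, 117 moved under the stricter *Col9a1* limit and 100 after thinning. Another 86 moved without cells over 5000 genes and 84 with under 5 *Col10a1* UMIs. Without cells near the *Col9a1* limit or rich in neutrophil UMIs, 38 gene and list values moved beyond their interval or spread, and these fell under 2-fold: *Ccnd1* (0.86), *Vegfa* (-0.92), *Epas1* (-0.87) and *Postn* (0.98) at day 14, *Gas1* (0.93) and *Fzd1* (0.96) at day 10 and *Sfrp1* (1.00 and 0.94) in both. *Mmp13* passed it at day 10 (-1.35). The part of missed rule genes and of doublets in the shares was not tested.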
